A study of Mus musculus with 6 samples.

Results

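The mRNA levels of 9 genes of the oligodendrocyte lineage were examined in neural stem/progenitor cells (NSC/NPCs) that had been grown from the hypothalamus of male mouse fetuses. The genes, ordered from the progenitor to the mature stage, were Olig1, Olig2, Sox10, Pdgfra, Cspg4, Gpr17, Enpp6, Mbp and Myrf. They were taken by symbol from the deposited table of 22048 genes, in which 9 of the 9 were found, and 9 of the 9 were among the 13952 genes with enough reads to be tested. The question of the comparison was how a prenatal high estradiol (HE) environment changes expression in these cells. Pregnant C57BL/6 dams of 8 weeks had been given estradiol valerate, an estradiol ester, by gavage (HE, 100 μg/kg daily, from E5.5 to mid-gestation), or corn oil alone (NC), although the sample labels describe NC as untreated. Hypothalami were taken at E14.5, and the cells of both groups grew as neurospheres in medium with B27, EGF (10 ng/mL) and bFGF (10 ng/mL) and were collected after the first passage. Each group had 3 samples, and each sample pooled 2 mice. Nothing in the labels says whether the samples came from separate litters, so the p-values measure the spread between these samples only.

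Oligodendrocytes are the glia that wrap axons of the central nervous system in myelin. They arise from neural progenitors that switch on the transcription factors Olig2 and Olig1 and then Sox10, pass through a dividing precursor stage that carries the PDGF receptor encoded by Pdgfra and the NG2 proteoglycan encoded by Cspg4, and leave that stage through a committed precursor that carries Gpr17 and Enpp6. Myrf then switches on the genes of myelin, among them Mbp. In the ventral brain, Olig2 also marks progenitors that give rise to neurons, and neurosphere cells grown in EGF and bFGF are known to express Olig1 and Olig2.

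Positions are those of the RefSeq annotation of GRCm38.p6, and each of the 9 is annotated as a protein-coding gene. Olig2 (chr16:91225550-91228677) and Olig1 (chr16:91269769-91271939) are neighbours on chromosome 16. Sox10 lies at chr15:79154913-79164490, Pdgfra at chr5:75151322-75198206, Cspg4 at chr9:56865104-56899870, Enpp6 at chr8:46939197-47096762 and Myrf at chr19:10208271-10240777. Promoter sequences, taken as the 250 bases before the annotated start, were examined for 4 of the 9, namely Olig2, Pdgfra, Cspg4 and Enpp6. The promoters of Olig2 (chr16:91225300-91225549, plus strand) and Enpp6 (chr8:46986637-46986886, plus strand) are shown because they are an early and a late gene of the series that took opposite directions in 1 sample described below, and capitals mark a word ACAATG or ACAAAG on either strand, a core of the sequences that Sox proteins bind.
Olig2: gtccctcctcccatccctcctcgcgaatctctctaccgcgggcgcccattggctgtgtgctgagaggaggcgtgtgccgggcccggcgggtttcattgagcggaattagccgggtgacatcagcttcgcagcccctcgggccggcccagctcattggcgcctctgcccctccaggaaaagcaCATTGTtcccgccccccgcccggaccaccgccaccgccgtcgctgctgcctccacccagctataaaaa
Enpp6: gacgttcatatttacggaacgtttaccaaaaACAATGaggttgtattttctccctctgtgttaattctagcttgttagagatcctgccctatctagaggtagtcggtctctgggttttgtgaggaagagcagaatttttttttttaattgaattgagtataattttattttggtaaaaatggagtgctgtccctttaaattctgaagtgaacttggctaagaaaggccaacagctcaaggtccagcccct
Each of these 2 sequences held 1 such word, starting 68 bases before the start in Olig2 and 219 bases before it in Enpp6, and the Pdgfra and Cspg4 promoters held 0. The word was present in 25.2% of 32851 promoters of the same length. The palindromic estrogen response element (GGTCA, any 3 bases, TGACC) and its core AGGTCA were searched on both strands and were found in 0 of the 4 promoters, against 0.0639% and 14% of the 32851. The E-box CANNTG, the kind of word that Olig proteins bind, occurred once, as CATCTG in the Pdgfra promoter, and was present in 66.2% of the 32851. These matches describe letters in a window and not bound sites. The Enpp6 and Pdgfra windows lie inside the annotated spans of their genes, which begin further upstream. GC content was 66.8% in the Olig2 window and 38.4% in the Enpp6 window.

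Between 16078675 (HE3) and 19137059 (NC2) reads per sample were counted on genes. Levels are given as RPKM, reads per kilobase of gene length scaled to the reads of the sample, which can be compared between genes. Of the markers of neural stem cells, Sox2 stood at 195 to 209 RPKM in NC and 97.3 to 176 RPKM in HE, and Nes, which encodes nestin, at 158 to 204 RPKM in NC and 154 to 247 RPKM in HE, so both defining markers were abundant in every sample. HE3 stood apart from the other samples. It lay under 25% of the lowest other sample in 237 of 13952 genes (1.7%), where each other sample did so in 0 to 11 genes. For that reason the differences are also given without HE3.

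The NC means of the 9 genes ran from 1.11 to 137 RPKM. Olig1 was the highest at 137 ± 3.40 RPKM (SD, n = 3) and Olig2 the next at 105 ± 6.43 RPKM, and their ranges did not overlap. Gpr17 (20.7 ± 2.59 RPKM), Mbp (16.4 ± 5.30 RPKM), Sox10 (14.4 ± 1.22 RPKM), Cspg4 (12.3 ± 3.60 RPKM) and Pdgfra (10.4 ± 2.96 RPKM) followed, and each overlapped its neighbour in that order. Enpp6 (1.18 ± 0.368 RPKM) and Myrf (1.11 ± 0.168 RPKM) lay below the range of Pdgfra and overlapped each other. In HE the means kept Olig1, Olig2 and Gpr17 at the top and Enpp6 and Myrf at the bottom, but only the step from Olig2 to Gpr17 separated neighbouring ranges.

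Olig1 and Olig2 are paralogous basic helix-loop-helix factors, and Olig2 is the one required to specify the lineage. Olig1 was at 136, 140.3 and 134 RPKM in NC1, NC2 and NC3 and at 143, 188 and 312 RPKM in HE1, HE2 and HE3. The 3 HE samples lay above the 3 NC samples, HE1 by a narrow margin. The mean was 1.57-fold higher in HE, and the log2 difference was 0.57 (SE 0.27, 95% interval -0.05 to 1.20) with an adjusted p of 0.264 in limma. Without HE3 it was 0.26 (SE 0.13, adjusted p = 0.316). Olig2 was at 97.7, 106 and 110.3 RPKM in NC and at 102, 131 and 182 RPKM in HE, so that HE1 lay inside the NC range and the other HE samples above it. Its log2 difference was 0.36 (SE 0.21, 95% interval -0.12 to 0.85, adjusted p = 0.326), and 0.14 (SE 0.13) without HE3. Neither gene passed the adjusted test. HE3 was the highest of the 6 samples for both, and its 10862 Olig1 reads and 7132 Olig2 reads gave exact Poisson 95% intervals of 307 to 318 RPKM and 178 to 186 RPKM, which cover counting error only. The ratio of Olig1 to Olig2 was 1.21 to 1.39 in NC and 1.40, 1.44 and 1.72 in HE1, HE2 and HE3.

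**Figure D1:**
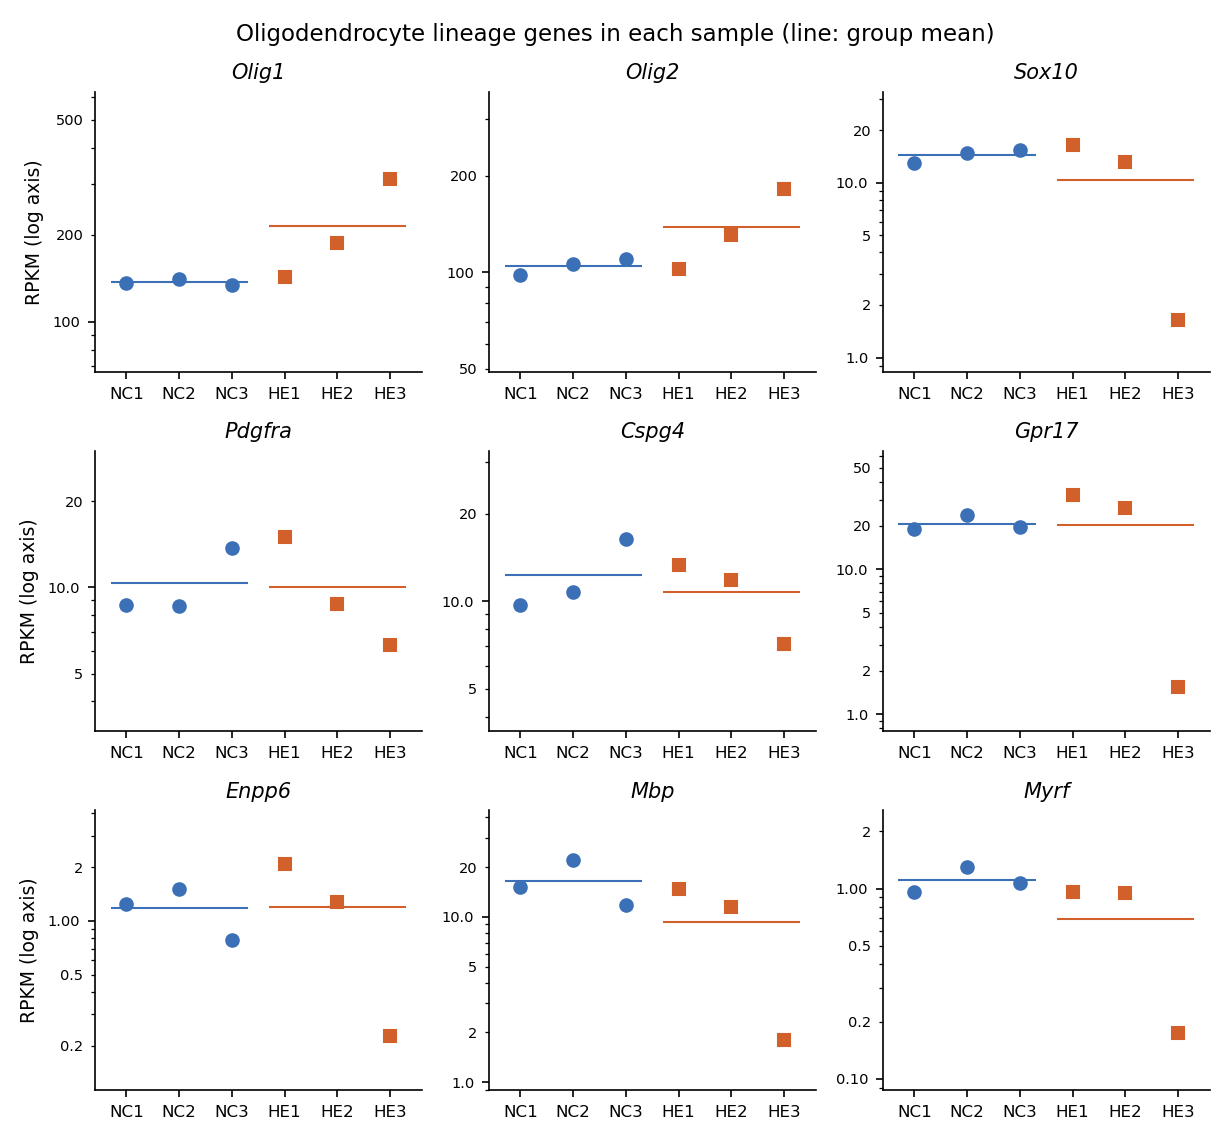
Level of each of the 9 genes in each sample (RPKM, log axis, its range set for each gene), with circles for NC, squares for HE and lines at the group means. HE3 is the highest sample for Olig1 (312 RPKM) and Olig2 (182 RPKM) and the lowest for the other 7 genes, while HE1 and HE2 lie near or above the NC samples for most genes.

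Sox10 encodes the HMG-box factor that, once the lineage is set, keeps it and activates myelin genes together with Myrf. It was at 13.0, 14.8 and 15.4 RPKM in NC and at 16.5, 13.1 and 1.65 RPKM in HE. HE1 and HE2 lay at or near the NC range, whereas HE3 was at 12.7% of the lowest other sample. The 72 reads in HE3 gave an exact Poisson 95% interval of 1.29 to 2.08 RPKM, and the mean of HE1 and HE2 was 8.98-fold its value. The log2 difference between the groups was -0.99 (SE 0.78, 95% interval -2.82 to 0.84, adjusted p = 0.454) and became 0.03 (SE 0.13, 95% interval -0.28 to 0.35) without HE3. Sox10 is also made by neural crest and Schwann cells. Their defining marker Foxd3 had 0 to 2 reads in each sample, with 0 in NC1, NC2, NC3 and HE3, and the summed level of the 10 listed markers was 33.7 to 37.3 RPKM in NC and 26.0 to 33.3 RPKM in HE, with 30.7 RPKM in HE3. Most of that sum came from Pmp22, at 21.0 to 32.6 RPKM. Of the 5 tested, 1 had HE values all above NC and 1 all below, where 14.8% and 17.9% of all genes had. In these bulk samples fewer cells of a type and less RNA per cell cannot be told apart.

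The surface markers of the dividing precursor behaved differently from Sox10 and varied within both groups. Pdgfra, whose product receives the PDGF-A signal that keeps precursors dividing, was at 8.70, 8.59 and 13.8 RPKM in NC and at 15.0, 8.75 and 6.29 RPKM in HE. The groups overlapped, with NC3 and HE1 high and HE3 lowest. The log2 difference was -0.11 (SE 0.33, 95% interval -0.89 to 0.68, adjusted p = 0.864), and 0.18 without HE3. Cspg4 was at 9.72, 10.8 and 16.4 RPKM in NC and at 13.3, 11.8 and 7.14 RPKM in HE, again with NC3 and HE1 as the highest sample of each group. Its log2 difference was -0.20 (SE 0.28, 95% interval -0.87 to 0.47, adjusted p = 0.681), and 0.07 without HE3. HE3 stood at 73.2% of the lowest other sample for Pdgfra and 73.5% for Cspg4, a much smaller gap than that of Sox10, and the ratio of Cspg4 to Pdgfra in HE3, 1.13, lay within the 0.889 to 1.35 of the other samples.

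Both surface markers are shared with other cells, Pdgfra with mesenchymal cells and Cspg4 with pericytes. Of the mesenchymal markers, Col1a1 was at 1.64 to 6.06 RPKM in NC and 3.10 to 8.30 RPKM in HE, and Pdgfrb at 0.744 to 2.21 RPKM and 1.07 to 2.52 RPKM. The summed level of the 12 listed mesenchymal markers was 35.8 to 89.3 RPKM in NC and 78.0 to 159 RPKM in HE, and none of the defining ones was at 0. By sign 11 of the 11 tested were higher in HE, beside 6109 of 13952 genes, with log2 differences from 0.001 (Foxc1) to 1.70 (Dcn). In 3 of the 11, Col3a1, Dcn and Twist1, the HE values were all above NC, against 14.8% of all genes. Pericyte markers summed to 84.5 to 148 RPKM in NC and 61.8 to 142 RPKM in HE, and the defining Rgs5 had 6 to 23 reads per sample and Kcnj8 14 to 33, with 1 of the 9 tested all above NC in HE and 1 all below (14.8% and 17.9% of all genes). The part of these cells in the Pdgfra and Cspg4 levels was not tested.

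Gpr17 and Enpp6 mark the precursor that has left the cell cycle. Gpr17, a G protein-coupled receptor (its gene lies on chromosome 18, as does Mbp) that holds precursors back from myelination, was at 18.9, 23.6 and 19.5 RPKM in NC and at 32.7, 26.6 and 1.53 RPKM in HE. HE1 and HE2 lay above every NC sample and HE3 far below every one, at 8.11% of the lowest other sample. The mean of HE1 and HE2 was 19.3-fold the HE3 value, whose 128 reads gave an exact Poisson 95% interval of 1.28 to 1.82 RPKM. With such a spread the log2 difference was -0.88 (SE 1.05, 95% interval -3.34 to 1.59, adjusted p = 0.624). Without HE3 it was 0.52 (SE 0.14, 95% interval 0.18 to 0.85, unadjusted p = 0.00876, adjusted p = 0.160), a change of direction that still did not pass the adjusted test. HE1 and HE2 both lay above every NC sample in 20.6% of all genes tested, and in 3.25% HE3 was at the same time below every NC sample, a combination that among the 9 genes only Gpr17 had.

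Enpp6, which encodes a choline-specific phosphodiesterase of newly forming oligodendrocytes, was at 1.24, 1.504 and 0.777 RPKM in NC and at 2.09, 1.27 and 0.225 RPKM in HE. HE3 was at 29.0% of the lowest other sample, with 16 reads and an exact Poisson 95% interval of 0.129 to 0.366 RPKM, and HE1 was the highest sample. The log2 difference was -0.32 (SE 0.67, 95% interval -1.89 to 1.25, adjusted p = 0.787), and 0.49 (SE 0.32, adjusted p = 0.424) without HE3.

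The mature stage was represented by Mbp and Myrf. Mbp encodes myelin basic protein, which compacts the myelin sheath, and its locus also gives golli transcripts that are made outside oligodendrocytes and that a gene-level value does not separate. It was at 15.2, 22.2 and 11.8 RPKM in NC and at 14.8, 11.49 and 1.79 RPKM in HE. NC2 was the highest sample, HE1 lay inside the NC range, HE2 just below it and HE3 at 15.6% of the lowest other sample. The log2 difference was the largest in size of the 9, -1.21 (SE 0.73, 95% interval -2.94 to 0.52, adjusted p = 0.349), and it was -0.28 (SE 0.26, 95% interval -0.91 to 0.35) without HE3. Myrf, the membrane-bound factor that turns on myelin genes, was at 0.965, 1.29 and 1.07 RPKM in NC and at 0.959, 0.943 and 0.174 RPKM in HE. The 3 HE values lay below the 3 NC values, but HE1 and NC1 differed by 147 against 155 reads, and the groups overlapped when samples were scaled by the median of ratios. Its log2 difference was -0.84 (SE 0.52, 95% interval -2.06 to 0.38, adjusted p = 0.355), and -0.19 (SE 0.18) without HE3, which held 24 Myrf reads.

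Set against all genes, the group differences of the 9 were not called. At an adjusted p under 0.05 with a log2 difference of at least 1 in either direction, 0 of the 9 and 0 of 13952 genes (0%) were called in limma. Over all genes, voom on the counts also gave 0 calls, while sample weights gave 268 and leaving out NC3 gave 103. The paper, with DESeq2 and the same cutoffs, did report differentially expressed mRNAs between these groups, so the 0 does not extend to that test. Its text names none of the 9. At an unadjusted p under 0.05, 0 of the 9 passed, where 2858 of all genes (20.5%) did. Groups that did not overlap were seen in 2 of the 9, Olig1 higher and Myrf lower in HE, against 32.7% of all genes. Of the 9 differences, 2 were positive and 7 negative with a median log2 difference of -0.32, beside -0.06 over all genes tested. Without HE3 the median was 0.14, beside 0.00 over all genes, and the unadjusted count became 1, Gpr17, which was higher in HE, where 19.9% of all genes passed in either direction and 9.35% were higher. Leaving out HE1 instead gave 3 at an unadjusted p under 0.05, beside 22.3% of all genes, with log2 differences of 0.83 for Olig1, 0.56 for Olig2 and -1.77 for Mbp, and adjusted p of 0.179, 0.181 and 0.221. A two-sided exact permutation test of each gene over the 20 ways to assign the samples reached its smallest possible p of 0.1 for Olig1 and Myrf, and gave 0.2 to 1.0 for the other 7.

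**Figure D2:**
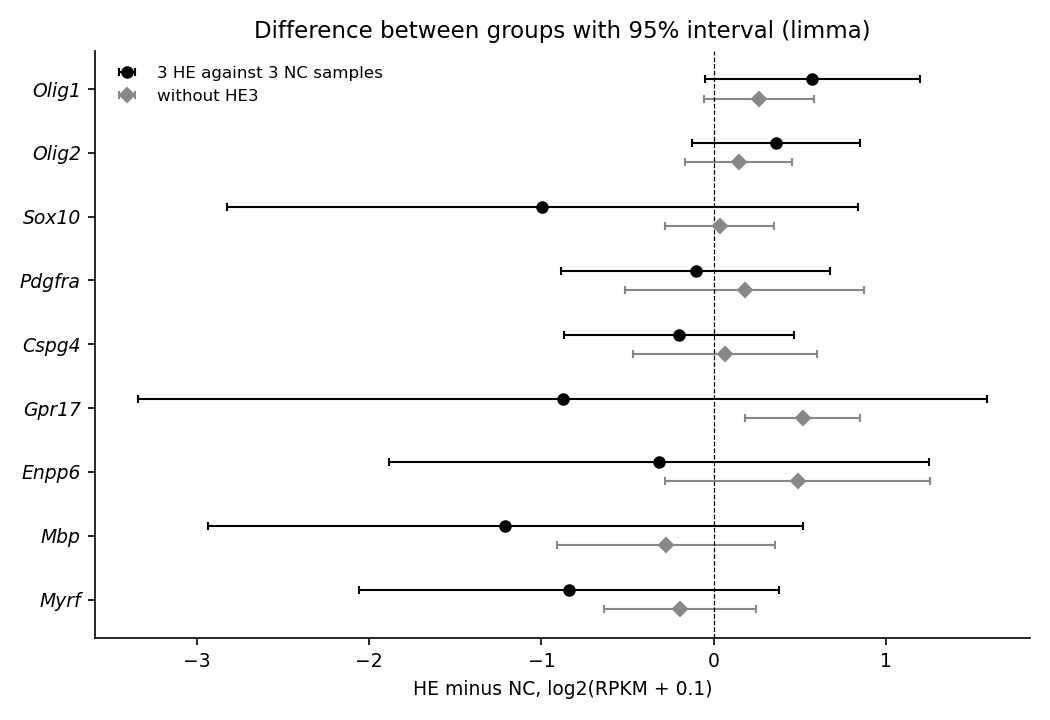
Difference of HE minus NC in log2(RPKM + 0.1) for each of the 9 genes with its 95% interval from limma, with all 6 samples (black circles) and without HE3 (grey diamonds). With all samples every interval includes 0, and without HE3 the interval of Gpr17 (0.18 to 0.85) does not include 0, with an adjusted p of 0.160.

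Without HE3, 5 of the 9 differences turned from negative to positive, and its profile within the lineage was described on its own, as a pattern seen after the values were known. It was the lowest of the 6 samples in 7 of the 9 genes, against 44.4% of all genes, and the highest in the other 2, against 24.5%. In 4 of the 9, Sox10, Gpr17, Mbp and Myrf, it was under 25% of the lowest other sample, against 1.7% of all genes. Relative to the mean of HE1 and HE2 the log2 level in HE3 was 0.92 for Olig1, 0.64 for Olig2, -0.81 for Cspg4, -0.90 for Pdgfra, -1.94 for Myrf, -2.45 for Enpp6, -2.81 for Mbp, -3.09 for Sox10 and -4.19 for Gpr17. Over all genes tested this value had a median of -0.16 and a range from the 5th to the 95th percentile of -1.36 to 0.62. Olig1 and Olig2 thus lay above that range, the precursor surface markers within it, and Sox10 and the later genes below it. The mean log2 level of the late genes Enpp6, Mbp and Myrf minus that of Olig1, Olig2 and Pdgfra was -4.13, -3.78 and -4.68 in NC and -4.21, -4.56 and -7.01 in HE1, HE2 and HE3. The ratio of Gpr17 to Pdgfra was 1.41 to 2.75 in NC, 2.18 in HE1, 3.04 in HE2 and 0.244 in HE3.

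**Figure D3:**
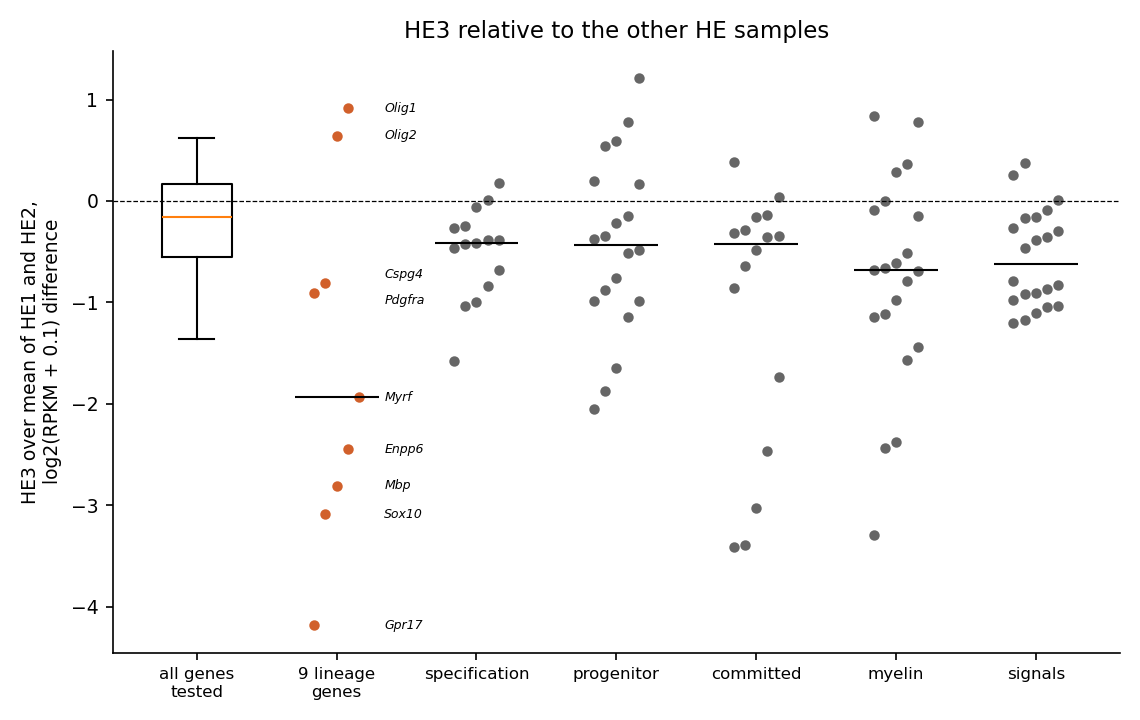
Level of HE3 relative to the mean of HE1 and HE2 (difference in log2(RPKM + 0.1)), for all genes tested (box from the 25th to the 75th percentile with the median, whiskers from the 5th to the 95th percentile), for the 9 lineage genes (orange) and for genes of 5 wider lineage lists (grey), with black lines at list medians. Olig1 (0.92) and Olig2 (0.64) lie above the upper whisker and 5 genes, from Myrf (-1.94) to Gpr17 (-4.19), below the lower one.

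The wider lineage was followed in 5 lists of 104 genes, of which 103 were in the table and 94 were tested. Of the 94, 32 were higher and 62 lower in HE by sign, with a median log2 difference of -0.11. Over all 13952 genes tested, 6109 were higher and 7843 lower, with a median of -0.06. At an unadjusted p under 0.05, 8 were higher and 12 lower, beside 8.68% and 11.8% of all genes, and at an adjusted p under 0.05 there were 0, the smallest being 0.195. HE3 was the lowest sample in 59 of the 94, and 7 of the 94 had HE1 and HE2 above and HE3 below every NC sample, against 44.4% and 3.25% of all genes.

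Among 15 tested genes that specify the lineage, the median log2 difference was -0.18. At an unadjusted p under 0.05, 1 was higher and 2 lower (8.68% and 11.8% of all genes). Nkx2-2, a homeodomain factor of ventral progenitors that also drives precursors to differentiate, was at 2.24, 2.24 and 2.41 RPKM in NC and at 3.09, 3.57 and 3.35 RPKM in HE. Its groups did not overlap, and HE3 lay between HE1 and HE2 here. The log2 difference was 0.52 (SE 0.14) with or without HE3, with adjusted p of 0.195 and 0.157 in limma. Zfp536, a zinc finger gene, was at 1.29 to 2.05 RPKM in NC and 0.614 to 1.18 RPKM in HE (log2 difference -0.80, adjusted p = 0.219, and -0.52 without HE3). Sox8, the close relative of Sox10, was at 34.8 to 39.4 RPKM in NC and at 49.8, 59.8 and 26.6 RPKM in HE, so HE1 and HE2 lay above and HE3 below NC, as for Gpr17 but with a far smaller gap in HE3.

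The 20 precursor genes gave 12 higher and 8 lower by sign, with a median of 0.15. At an unadjusted p under 0.05, 3 were higher and 1 lower (8.68% and 11.8% of all genes). C1ql1, which encodes a secreted C1q-like protein of precursors, was at 45.1, 31.7 and 29.1 RPKM in NC and at 27.9, 16.9 and 6.04 RPKM in HE (log2 difference -1.28, SE 0.51, adjusted p = 0.229), and at -0.67 without HE3. Tmem100 was at 0.573 to 1.01 RPKM in NC and 1.37 to 2.05 RPKM in HE (log2 difference 1.04, SE 0.25, adjusted p = 0.195, and 1.16 without HE3).

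In the 16 tested genes of committed precursors, 3 were higher and 13 lower by sign, with a median of -0.21 and of 0.14 without HE3. At an unadjusted p under 0.05, 1 was higher and 4 lower, beside 8.68% and 11.8% of all genes. Without HE3, 5 were higher and 4 lower, beside 9.35% and 10.5%. HE3 was the lowest sample in 14 of the 16, against 44.4% of all genes. Of the 16, 4 that were picked after their values were seen had HE1 and HE2 above NC and HE3 below it, as Gpr17 and 3.25% of all genes had. Bcas1, a marker of newly formed oligodendrocytes, was at 7.33 to 9.05 RPKM in NC and at 15.3, 11.1 and 2.31 RPKM in HE. Neu4, a sialidase gene, was at 0.345 to 0.439 RPKM in NC and at 1.01, 0.859 and 0.0268 RPKM in HE, the last from 2 reads. Lims2, a LIM-domain adaptor gene, was at 2.90 to 3.93 RPKM in NC and at 7.11, 5.84 and 0.516 RPKM in HE, and Bmp4, a secreted growth factor made by committed precursors, at 1.34 to 2.26 RPKM in NC and at 4.02, 3.16 and 0.252 RPKM in HE. Without HE3 their log2 differences were 0.66 for Bcas1, 1.08 for Neu4, 0.86 for Lims2 and 1.01 for Bmp4, with adjusted p of 0.151, 0.130, 0.131 and 0.148. Not each gene of the list had this order. Tns3, which encodes the adhesion protein tensin 3, was at 28.3 to 32.7 RPKM in NC and 16.6 to 24.5 RPKM in HE (log2 difference -0.53, adjusted p = 0.195, and -0.37 without HE3), and Gpr37, a receptor gene of the lineage, at 2.78 to 5.15 RPKM and 1.94 to 2.61 RPKM (-0.77, adjusted p = 0.197, and -0.65 without HE3), so that each had HE values that were all below NC.

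**Figure D4:**
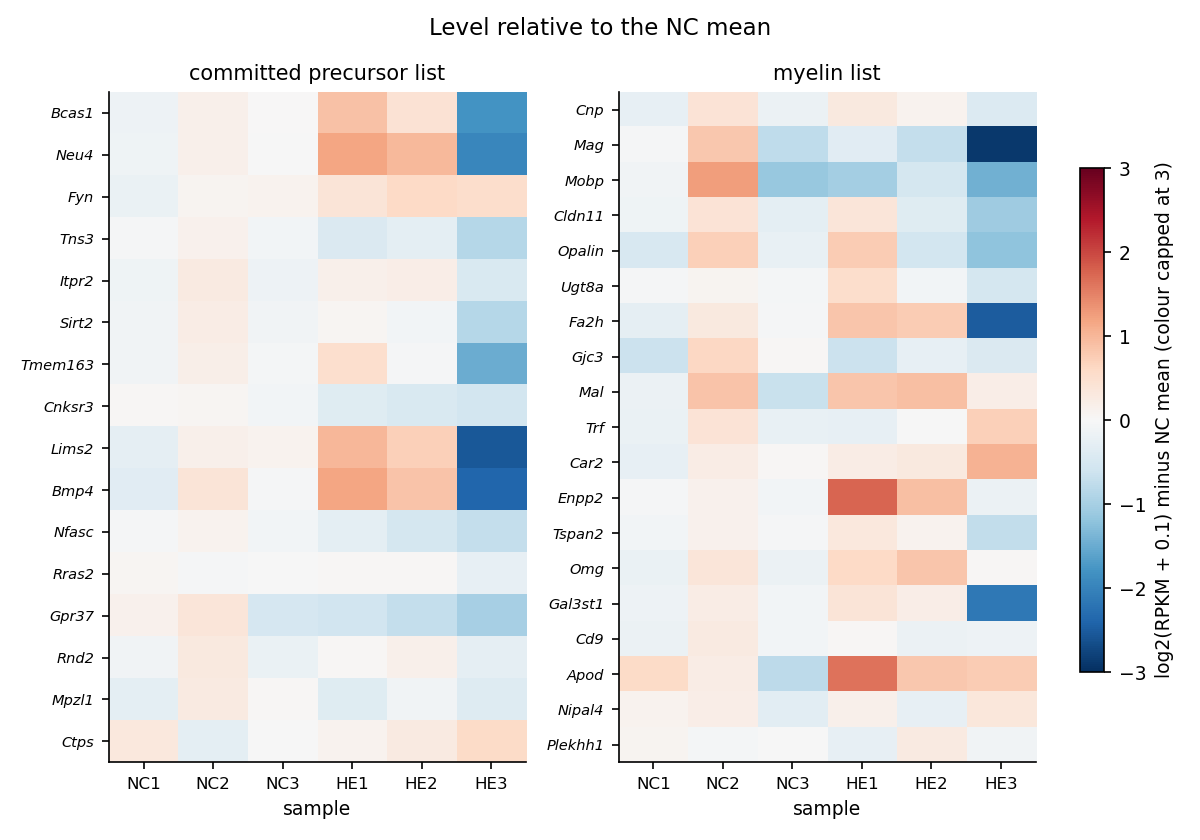
Level of 16 tested genes of the committed precursor list (left) and 19 of the myelin list (right) in each sample, as log2(RPKM + 0.1) minus the NC mean of that gene (red above, blue below, colour capped at 3). HE3 is the lowest sample in 14 of the 16 and 10 of the 19, against 44.4% of all genes tested. Bcas1, Neu4, Lims2 and Bmp4 are above NC in HE1 and HE2.

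Of 21 tested myelin genes, 8 were higher and 13 lower by sign, and the median was -0.10. At an unadjusted p under 0.05, 1 was higher and 0 lower (8.68% and 11.8% of all genes). Cnp, an early myelin enzyme, was at 60.6, 95.1 and 63.1 RPKM in NC and at 87.3, 77.3 and 54.0 RPKM in HE, a log2 difference of 0.00 (SE 0.24, adjusted p = 0.998) and of 0.20 without HE3. Mag, Fa2h and Gal3st1, which encode an adhesion protein and enzymes of myelin lipids, were under 25% of the lowest other sample in HE3, and Fa2h, with 21 to 49 reads elsewhere, had 0 reads there, which allows up to 0.0620 RPKM (3 reads). In contrast Apod, a lipid-carrier gene, was at 3.46 to 8.97 RPKM in NC and 10.3 to 18.8 RPKM in HE (log2 difference 1.07, SE 0.38, adjusted p = 0.210, and 1.22 without HE3). Mog and Ermn, markers of the fully mature cell, had at most 11 and 7 reads in any sample and were not tested.

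The list of ligands, receptors and chromatin factors that act on the lineage gave 5 higher and 17 lower by sign of 22 tested, with a median of -0.21. At an unadjusted p under 0.05, 2 were higher and 5 lower (8.68% and 11.8% of all genes). Pdgfa, the ligand of the Pdgfra receptor, was at 18.2, 17.2 and 17.8 RPKM in NC and at 15.1, 11.1 and 10.6 RPKM in HE (log2 difference -0.55, SE 0.15, adjusted p = 0.195), and at -0.46 without HE3. Erbb3, a neuregulin receptor, had the smallest unadjusted p of the wider lists at 0.000338, with 1.29, 1.17 and 1.19 RPKM in NC, 0.520, 0.410 and 0.310 RPKM in HE and a log2 difference of -1.38 (SE 0.22, adjusted p = 0.195). Lif, a cytokine that favours oligodendrocyte survival, was at 13.2, 9.15 and 8.87 RPKM in NC and at 6.45, 3.77 and 2.43 RPKM in HE (log2 difference -1.37, SE 0.34, adjusted p = 0.195). For these 3 genes every HE sample was below every NC sample, and the differences without HE3, -0.46, -1.23 and -1.04, kept the sign and most of the size. None of them passed the adjusted test.

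The genes whose profiles over the 6 samples were nearest to those of 4 of the lineage genes were found from the Euclidean distance between log2(RPKM + 0.1) values centred on their mean. Pald1 (distance 0.10) and Lpar6 (0.13) were nearest to Olig2, and Olig1 came 468th at 0.37. The nearest to Pdgfra were Zmat4 (0.26) and Ldb3 (0.33), with Cspg4 28th at 0.46. Epo (0.31), which was listed at 0 in HE3, and Adam11 (0.69) were nearest to Gpr17, with Sox10 5th at 0.94 and Mbp 21st at 1.28. Mbp had Efna1 (0.46) and Dnm1 (0.53) as its nearest, with Sox10 26th at 0.77. Adam11 was at 12.3 to 16.4 RPKM in NC, 14.5 and 15.2 RPKM in HE1 and HE2 and 1.04 RPKM in HE3, and Efna1 at 14.1 to 25.7, 14.2 and 12.3, and 1.43 RPKM. The profiles of Gpr17 and Mbp were thus shared with genes from outside the lists.

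Markers of other cells also differed between samples. The summed level of 10 microglial markers was 0.684 to 1.97 RPKM in NC and 5.13 to 37.8 RPKM in HE, highest in HE3, where Lyz2 gave 25.4 RPKM of it, and the defining C1qa had 0, 0 and 1 reads in NC and 18, 5 and 53 reads in HE. Of the 4 microglial markers tested, 2, C1qb and Lyz2, had HE values that were all above NC, where 14.8% of all genes had. C1qb had 2, 0 and 0 reads in NC and 22, 12 and 35 in HE. It met the read filter only through its HE samples, so its place above NC was largely set by the filter. The 10 endothelial markers summed to 3.005 to 4.13 RPKM in NC and 4.85 to 6.45 RPKM in HE, and the defining Cdh5 was at 0.341 to 0.755 RPKM and 1.66 to 2.75 RPKM. In 2 of 5 tested the HE values were all above NC (14.8% of all genes). The 10 astrocyte markers summed to 1590 to 1978 RPKM in NC and 1152 to 1641 RPKM in HE, with Gfap at 195 RPKM in HE3 and 387 to 754 RPKM in the other samples. HE3 was the lowest sample in 5 of these 10 and the highest in 1 (44.4% and 24.5% of all genes). The 10 neuron markers summed to 49.1 to 79.3 RPKM and 55.7 to 75.5 RPKM. The 10 neural stem markers summed to 2916 to 3615 RPKM and 2863 to 4552 RPKM, where the high sum of HE3 came from Fabp7, at 2383 RPKM there and 736 to 1373 RPKM in the other samples. In these 10, HE3 was the lowest sample in 5 and the highest in 3 (44.4% and 24.5% of all genes). All HE values were above NC for 1, 3 and 0 genes of these 3 lists and all below for 1, 0 and 5, in 10 tested each, where 14.8% and 17.9% of all genes were. The part of these differences in the lineage levels was not tested.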

How the data were processed

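RNA-Seq of 3 HE and 3 NC samples was used. The labels and the paper name different Illumina sequencers. Libraries were strand-specific, and the authors filtered reads and aligned them to mm10 with TopHat2. The submitters' processing notes also name CASAVA 1.7. The counting tool, the gene models and whether strand was used are not given in the sources used here, so reads of overlapping genes could be shared. The deposited table holds raw read counts and RPKM, which the authors computed from counts, gene length and sample totals; recomputed values differed by at most 4.99e-07. Symbols were found for 21781 of 22048 identifiers. Large counts carry commas, and the check of units did not accept them in that form. With the commas removed, the counts were used for the read filter, the median-of-ratios scaling, the Poisson intervals and voom. A count model such as the DESeq2 of the paper was not run.

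Genes with at least 10 reads in a library of median size in 3 samples and 15 reads in all were tested (13952). limma 3.58.1 (R 4.3.3) with a mean-variance trend compared the groups on log2(RPKM + 0.1), with no other term, and with Benjamini-Hochberg adjustment over all genes tested. This scale understates changes of low genes. The smallest p of the exact permutation test was 0.1. Every pair of libraries differed by more than sampling noise (chi-square per degree of freedom of 15.6 or more). The 9 genes and the lists were chosen with earlier results of these data known. In each list the text names the 2 genes with the largest log2 difference among those whose groups did not overlap, always Nkx2-2, Cnp, Pdgfa, Sox2, Nes, Col1a1, Pdgfrb, Rgs5 and Foxd3, and the 2 nearest profiles of Olig2, Pdgfra, Gpr17 and Mbp. Any other gene was named once its values were known. Alternatives were a pseudocount of 1, median-of-ratios scaling, other filters, a block for the replicate number, leaving out each sample, voom on the counts and sample weights. Some single genes that this rule names are not reported here. The lncRNAs were not analysed here. The promoter search left out Gpr17 and Mbp beforehand, so it does not show whether RefSeq promoters were available for them.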

Additional observations from a re-analysis of the deposited data

How the results depend on the processing

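None of the 9 genes was called in any of the 13 alternatives run, and their adjusted p ranged from 0.109 (Olig1, sample weights) to 0.992 (Pdgfra). Olig1, Olig2, Mbp and Myrf kept their direction in every one. Leaving out HE3 turned the log2 difference to 0.068 for Cspg4, 0.49 for Enpp6, 0.52 for Gpr17, 0.18 for Pdgfra and 0.034 for Sox10, and leaving out NC3 turned it to 0.03 for Cspg4 and 0.12 for Pdgfra. With sample weights, where HE3 received 0.158 and the other samples 0.852 to 2.87, it turned to 0.050 for Cspg4, 0.24 for Enpp6 and 0.33 for Gpr17. Over the fits that left out 1 sample, log2 differences ranged from 0.26 to 0.83 for Olig1, 0.14 to 0.56 for Olig2, -1.59 to 0.03 for Sox10, -0.44 to 0.18 for Pdgfra, -0.38 to 0.07 for Cspg4, -1.65 to 0.52 for Gpr17, -0.89 to 0.49 for Enpp6, -1.77 to -0.28 for Mbp and -1.17 to -0.19 for Myrf, with the ends reached without HE1 and without HE3, and their median from -0.89 to 0.14. Over all genes tested the calls numbered 268 with sample weights (100 higher, 168 lower) and 0 to 103 with 1 sample left out, the 103 without NC3 (7 higher, 96 lower). The count of the 9 genes with groups that did not overlap was 1 under median-of-ratios scaling and 2 to 4 with 1 sample left out. The count at an unadjusted p under 0.05 was 1 with the replicate block (Mbp), 1 with sample weights (Olig1) and 0 to 3 with 1 sample left out. Genes of the wider lists at that threshold numbered 18 higher with sample weights and 6 to 17 with 1 sample left out, and 20 lower with the replicate block and 8 to 17 with 1 sample left out. The causes were not tested.

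The samples share only a replicate number. Deviations from the group means correlated at 0.156, 0.0869 and 0.0603 between samples of the same number, and each sample correlated best with its own number. These correlations are low and rest on 3 samples a group. They cannot show that samples were paired, which the design does not state. The replicate block gave 3184 genes at an unadjusted p under 0.05, against 2858 without it, and 0 calls.

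Depth limited Enpp6, Myrf and Neu4, which had as few as 16, 24 and 2 reads in a sample, where 1 read on a gene of 1 kilobase was 0.0523 to 0.0622 RPKM. With 3 samples a group, the wide intervals of Gpr17 and Mbp cannot separate no difference from a several-fold one.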

Other observations

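The deposited read counts of Pdgfra, Cspg4 and Gpr17 were even numbers in all 6 samples, 3 of the 9 lineage genes. Of 12940 genes with at least 10 reads in every sample, 224 (1.73%) had even counts throughout. The Poisson interval given for Gpr17 treats each read as an independent count, which was not tested.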
